A study of Mus musculus with 11 samples.

Results

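The 8 genes described here are 3 genes at the head of the RAS-RAF-MEK-ERK pathway, *Braf*, *Nras* and *Hras*, and 5 genes whose transcripts are read as the output of ERK signaling, *Dusp4*, *Dusp6*, *Spry2*, *Spry4* and *Etv5*. They were listed by name as pathway genes, and all 8 had a row among the 14272 genes of the deposited tables. The expression tables came from total RNA sequencing of 11 cultures of 4 mouse cell lines that model melanoma progression. Melan-a (n = 2), the parental line, consists of nonmalignant C57Bl/6 melanocytes that immortalized spontaneously. It is of epithelial morphology and was the only line grown with PMA, at 200 nM in medium with serum. The other lines were obtained from melan-a by repeated cycles of detachment and were grown in the same medium without PMA: 4C (n = 3) is pre-malignant and mesenchymal-like, 4C11- (n = 3) is a non-metastatic mesenchymal-like melanoma line, and 4C11+ (n = 3) is a metastatic melanoma line of epithelial morphology. Each stage was represented by 1 line, so every test below measures the spread between cultures of a line. The presence of PMA and the melan-a line cannot be told apart. Melan-a replicate 1 was not analysed here.

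RAS proteins are small GTPases of the inner cell membrane that are loaded with GTP by exchange factors and switched off by GTPase-activating proteins. GTP-bound RAS recruits RAF kinases, which phosphorylate the MEK kinases, which in turn phosphorylate ERK, and in melanocytes this cascade carries signals from KIT and other receptors. *BRAF* and *NRAS* are the RAS-RAF genes most often mutated in human cutaneous melanoma, while *HRAS* mutations occur in some melanocytic nevi. Active ERK raises transcription of its own inhibitors: DUSP4 and DUSP6 are phosphatases that remove phosphate from ERK, and the Sprouty proteins SPRY2 and SPRY4 restrain signaling upstream of it. ETV5 is an ETS transcription factor of the PEA3 group that is induced with them. PMA is a phorbol ester that activates protein kinase C and RasGRP exchange factors, both of which act upstream of RAF. Transcript levels do not measure the phosphorylation of ERK or mutations of these genes, neither of which was examined.

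All levels below are the deposited values on the log2 CPM scale. Their distribution is the same in all 11 libraries, so they are relative levels. The depth was estimated at 3500000 to 7420000 reads per library from the value shared by genes of 40 reads. This estimate is rough, because it takes the values as plain log2 CPM, which the shared distribution shows they are not. A gene is called between lines when the adjusted p of the limma fit across all 14272 genes was under 0.05 by the Benjamini-Hochberg method. The 7 melanocyte markers (*Tyr*, *Tyrp1*, *Dct*, *Pmel*, *Mlana*, *Mitf* and *Sox10*) summed to between 1740 and 8960 CPM in both melan-a cultures and to between 10600 and 12900 CPM in those of 4C11+. Melan-a was low in *Tyr* (-0.25 to 1.29 log2 CPM) and *Pmel* (2.41 to 2.95), whose 4C11+ means were 8.52 and 11.91. Its means of *Tyrp1*, *Dct*, *Mlana*, *Mitf* and *Sox10* lay between 7.56 and 10.57. In 4C and 4C11- the sums were only 3.52 to 6.5 and 3.01 to 11.5 CPM, so the melanocyte label is not borne out by markers in the last 2 lines. The 4 fibroblast markers of 7 in the table were *Col1a1*, *Col3a1*, *Pdgfra* and *Pdgfrb*, while *Col1a2*, *Dcn* and *Lum* had no row. The 4 summed to at least 1970 and at most 2630 CPM in 4C and 4C11-. *Col1a1* was the highest of them there, at means of 10.88 and 10.57 log2 CPM. In melan-a the sum was at most 206 CPM, and in 4C11+ at most 45 CPM. Of 6 leukocyte markers, 3 were in the table and summed to 12.7 to 96.8 CPM in melan-a and 7.64 to 44.7 CPM elsewhere. Among 4 endothelial markers only *Cdh5* was in the table, at 92.9 to 172 CPM in 4C11- and at most 16.1 CPM elsewhere, and of 6 keratinocyte markers only *Krt10*, at most 2.8 CPM. These marker levels move with the differences between mesenchymal-like and epithelial lines below, and their part in those was not tested. Some libraries stood apart from their line: melan-a replicates 2 and 3 correlated at r = 0.907 over all genes, and 4C11- replicate 1 at 0.924 and 0.888 with the other cultures of its line.

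*Braf*, which encodes the RAF kinase most active toward MEK, lies at chr6:39603237-39725463 on the minus strand (GRCm38) and overlaps *Ndufb2* on the other strand and the pseudogene *Fth-ps2*, and since the strand setting of the counting was not given, reads of these cannot be told apart from its own. Its level was 5.34 and 6.13 in melan-a, 5.35, 6.17 and 5.87 in 4C, 3.88, 5.50 and 6.32 in 4C11-, and 5.93, 5.67 and 6.47 in 4C11+ (replicates in numerical order). The libraries of all 4 lines overlapped, and the lowest value by far was 4C11- replicate 1. *Braf* was called in none of the 6 comparisons of lines. The widest gap, 4C11+ against 4C11-, was 0.79 (SE 0.52, adjusted p = 0.274) with a 95% interval of -0.35 to 1.93, so a rise of more than 3-fold was still inside it. In 4C11- replicate 1 genes with under 2.42 kb of exonic sequence ran a median of 0.42 above the other cultures of the line, and genes over 6.42 kb ran 0.11 below. *Braf*, at 13.86 kb of exonic sequence, belongs to the latter, and the part of this shift in its low value was not tested.

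*Nras*, at chr3:103058285-103067914 on the plus strand, encodes the RAS protein that carries most RAS mutations in melanoma. It stood at 6.71 and 6.72 in melan-a and at 6.70, 6.76 and 6.99 in 4C11+, above all values of 4C (6.37, 6.26 and 5.85) and 4C11- (6.01, 6.51 and 6.38). The epithelial and mesenchymal-like libraries did not overlap. The difference was small: 4C11+ was 1.58-fold above 4C (log2 difference 0.66, SE 0.22, adjusted p = 0.0405), and 4C and 4C11- together were 1.45-fold below melan-a and 4C11+ together (-0.53, SE 0.17, adjusted p = 0.0295). Against melan-a alone, 4C was lower by 0.55 with an adjusted p of 0.168, and 4C11- by 0.41 with an adjusted p of 0.325. The first call was lost, among others, without 4C replicate 2 or 3 or any culture of 4C11+.

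*Hras*, at chr7:141189105-141194005 on the minus strand, encodes a classical RAS protein. Its values were 5.53 and 5.74 in melan-a, 6.35, 5.78 and 5.42 in 4C, 6.32, 5.95 and 5.81 in 4C11-, and 6.44, 6.66 and 5.88 in 4C11+. Melan-a averaged 5.63, the lowest line mean, followed by 4C with 5.85, 4C11- with 6.03 and 4C11+ with 6.33, but neighbouring lines did not differ beyond their spread, and *Hras* was called in no comparison. The gap between the end lines was 0.69 (SE 0.33, adjusted p = 0.179, 95% interval -0.02 to 1.41).

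Compared per kilobase of exonic sequence, which makes genes comparable, *Nras* and *Hras* lay close together: *Nras* averaged 4.30 log2 CPM per kb in the 2 cultures of melan-a (SD 0.01) and 4.40 in the 3 of 4C11+ (SD 0.15), and *Hras* 3.73 (SD 0.15) and 4.43 (SD 0.40). *Braf* lay at 1.44 to 2.23 on this scale across the lines, below the related RAF kinase gene *Araf* at 2.55 to 3.38 in the mean of every line. These lengths join the exons of all annotated transcripts, so a long annotated gene such as *Braf* is placed low.

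**Figure D1:**
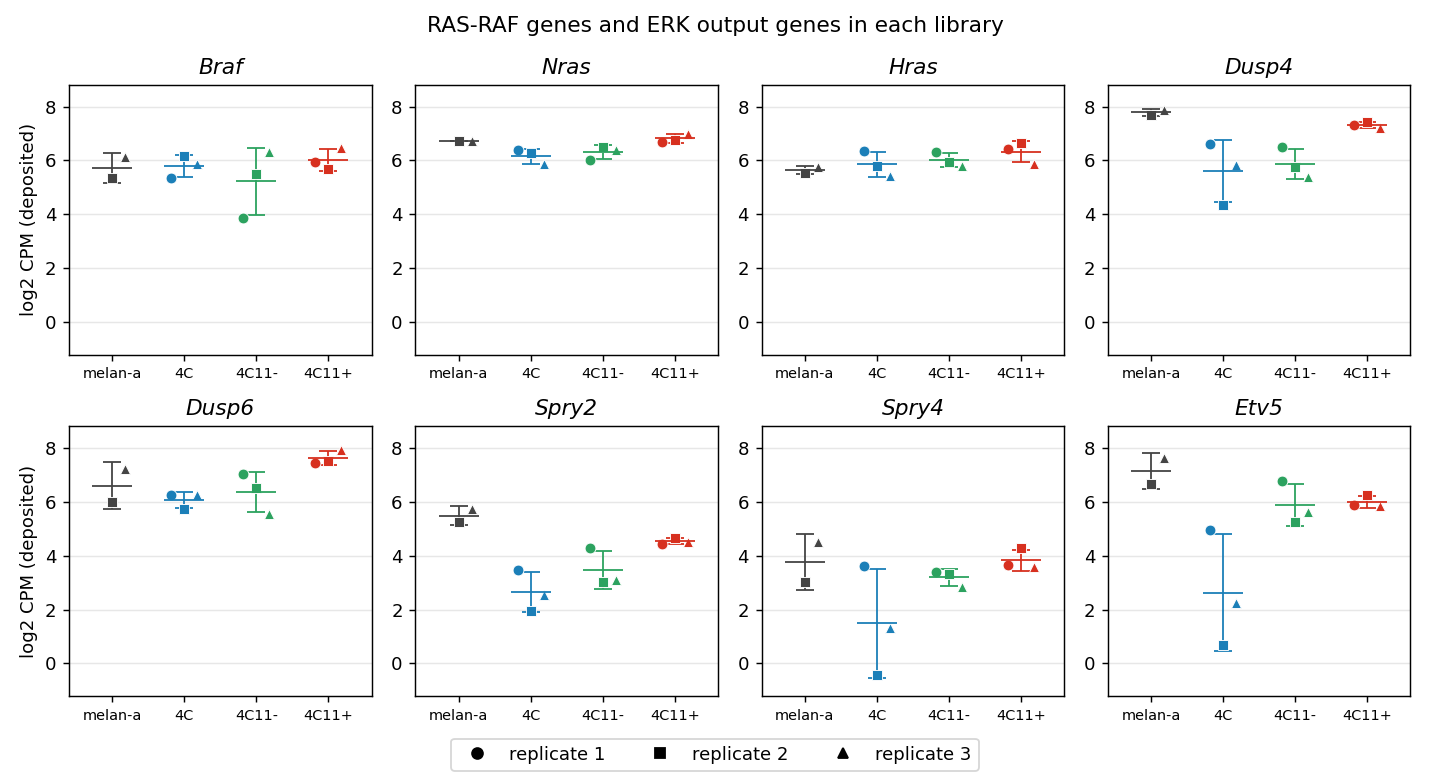
Deposited log2 CPM of each of the 8 genes (vertical axis) in the 11 libraries, by line (horizontal axis). Symbols are replicates 1, 2 and 3, the horizontal bar is the line mean and the whiskers are 1 SD. The RAS-RAF genes stay between 3.88 and 6.99, whereas *Spry4* and *Etv5* drop to -0.42 and 0.69 in 4C replicate 2.

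The ERK output genes were highest in melan-a or 4C11+ and lowest in 4C, with 4C11- next to it, in all 5 cases. *Dusp4*, at chr8:34807297-34819894 on the plus strand, measured 7.70 and 7.88 in melan-a and 7.32, 7.43 and 7.19 in 4C11+. In the mesenchymal-like lines it measured 6.62, 4.34 and 5.84 in 4C and 6.49, 5.75 and 5.37 in 4C11-. Every epithelial library lay above every mesenchymal-like library. The line means in descending order were 7.79 in melan-a, 7.31 in 4C11+, 5.87 in 4C11- and 5.60 in 4C. Only the step between 4C11+ and 4C11- was called (1.44, SE 0.47, adjusted p = 0.0377), while melan-a and 4C11+ differed by -0.48 (adjusted p = 0.584) and 4C11- and 4C by 0.27 (adjusted p = 0.852).

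*Dusp6*, the phosphatase most specific to ERK in the cytoplasm, lies at chr10:99263231-99267489 on the plus strand. It was highest in 4C11+, at 7.42, 7.51 and 7.92, above all other libraries. Melan-a gave 5.98 and 7.21, 4C gave 6.24, 5.72 and 6.24, and 4C11- gave 7.02, 6.51 and 5.56, which overlap. The 4C11+ mean of 7.62 was 2.38-fold above that of 4C11- (adjusted p = 0.0309) and 2.93-fold above that of 4C (adjusted p = 0.0109). Against melan-a it was 1.02 higher (SE 0.44) with an adjusted p of 0.14, and the lower 3 lines did not differ from each other beyond their spread.

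*Spry2*, at chr14:105891947-105896819 on the minus strand, gave 5.23 and 5.73 in melan-a, 3.45, 1.96 and 2.55 in 4C, 4.29, 3.02 and 3.08 in 4C11-, and 4.44, 4.65 and 4.49 in 4C11+. Melan-a lay above all derived libraries and 4C11+ above all mesenchymal-like ones. The means stepped down from 5.48 in melan-a to 4.53 in 4C11+, 3.46 in 4C11- and 2.65 in 4C. No neighbouring pair passed the test (differences of 0.81 to 1.06 in size, adjusted p from 0.083 to 0.467), but lines further apart did: 4C was 7.1-fold and 4C11- 4.05-fold below melan-a, and 4C11+ was 3.67-fold above 4C. The level in 4C replicates 2 and 3 rested on 28 and 33 reads.

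*Spry4*, at chr18:38586247-38601415 on the minus strand, had the lowest levels of the 5. It gave 3.02 and 4.50 in melan-a, 3.60, -0.42 and 1.30 in 4C, 3.41, 3.33 and 2.83 in 4C11-, and 3.66, 4.27 and 3.56 in 4C11+. Melan-a overlapped with every other line, 4C11+ lay above 4C11-, and within 4C replicate 1 stood at the level of the rest while replicates 2 and 3 held only 6 and 14 reads. *Spry4* was called only in 4C11+ against 4C (2.33, SE 0.80, adjusted p = 0.0435). That call was lost in 9 of 19 alternative analyses, among them those without 4C replicate 2 or 3, without 4C11- replicate 2 or 3, and without any culture of 4C11+.

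*Etv5*, at chr16:22381309-22439719 on the minus strand, showed the widest range. It measured 6.67 and 7.61 in melan-a, 6.75, 5.26 and 5.60 in 4C11-, and 5.86, 6.24 and 5.83 in 4C11+, but 4.95, 0.69 and 2.25 in 4C. All 4C values lay below every library of the other lines. The 4C mean of 2.63 was 22.8-fold below melan-a (-4.51, SE 0.92, adjusted p = 0.00588) and 10.2-fold below 4C11+ (adjusted p = 0.00907). Against 4C11- it was 9.43-fold lower (3.24, SE 0.82), which did not pass at an adjusted p of 0.0805. The other lines, at means of 7.14, 5.98 and 5.87, were not called against each other, although all 4C11+ libraries lay below those of melan-a (-1.17, SE 0.92, adjusted p = 0.422). The values of 4C replicates 2 and 3 rested on 12 and 27 reads.

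In the comparison of pre-malignant cells with nonmalignant melanocytes, 4C against melan-a, 3 of the 8 genes fell and none rose: *Etv5*, *Spry2* and *Dusp4*. Over all genes 15.2% were called, 7.64% as higher and 7.55% as lower in 4C. *Spry2* fell by 2.83 on the log2 scale (SE 0.48, adjusted p = 0.00187) and *Dusp4* by 2.19 (SE 0.53, adjusted p = 0.0156). *Spry4* was lower by 2.26 with an adjusted p of 0.117 and overlapping libraries. *Spry2* and *Etv5* kept their calls under all 19 alternatives, the smallest *Etv5* difference being -3.54, while *Dusp4* lost its call without melan-a replicate 2 or replicate 3 and when only these lines were fitted.

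**Figure D2:**
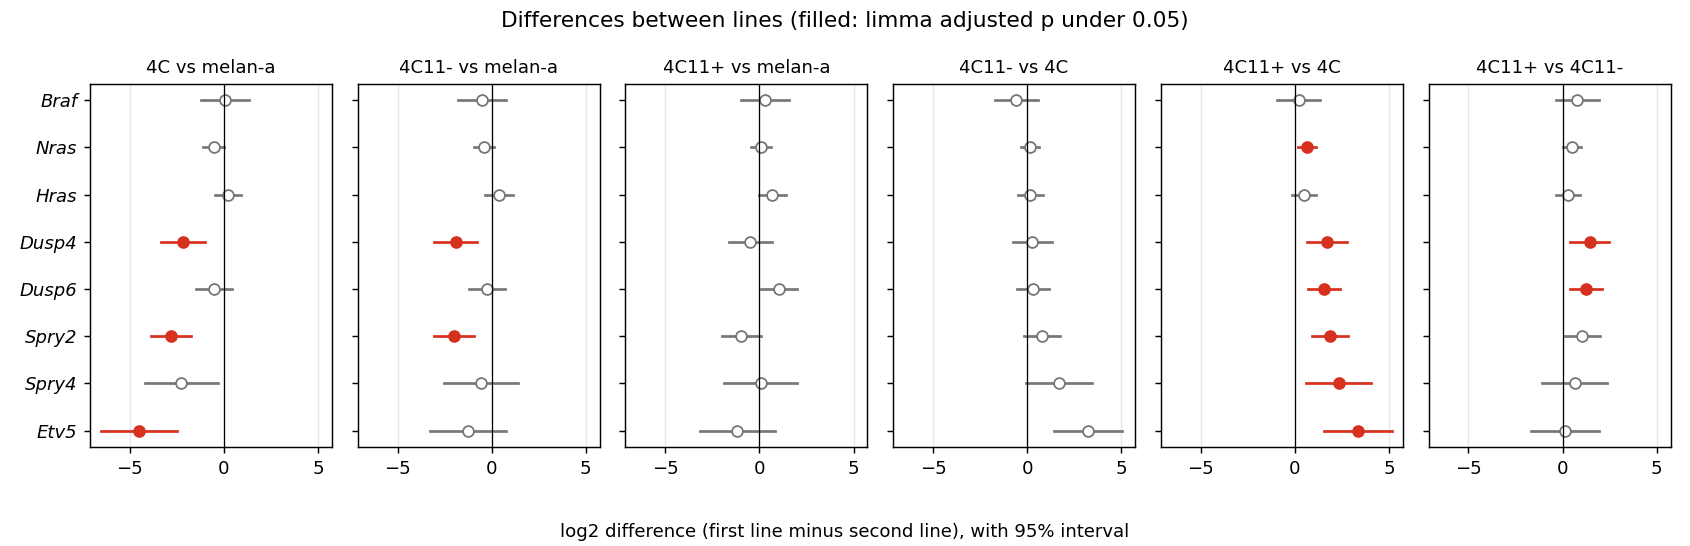
Log2 difference of each gene (rows) in the 6 comparisons of lines (panels), first line minus second, with the 95% interval of the limma fit. Filled red points passed an adjusted p of 0.05; they lie on the negative side in 4C and 4C11- against melan-a and on the positive side in 4C11+ against 4C and 4C11-.

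For non-metastatic melanoma cells against the pre-malignant line, 4C11- against 4C, none of the 8 genes was called by limma and 1, *Etv5*, had an unadjusted p under 0.05. The background was also small, at 1.67% of all genes (1.26% higher and 0.406% lower). *Etv5* was higher in 4C11- by 3.24 with no overlap between libraries, and it passed in the analysis without 4C replicate 1, with weights for single libraries and with the replicate number as a block.

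The step from non-metastatic to metastatic melanoma, 4C11+ against 4C11-, was called for *Dusp4* and *Dusp6*, both higher in 4C11+, against 31.1% of all genes (15.6% higher and 15.4% lower). With 2 of 8 genes, the share called was below this background. *Spry2* was 2.09-fold higher in 4C11+ without overlap (1.06, SE 0.43, adjusted p = 0.083), and *Nras* 1.43-fold higher (0.52, SE 0.22, adjusted p = 0.0977). *Etv5* was nearly level (0.11, 95% interval -1.69 to 1.91), an interval that leaves room for a change of more than 3-fold either way. No gene passed without 4C11- replicate 2, 4C11- replicate 3 or any culture of 4C11+, and *Dusp6* alone passed without 4C replicate 3. Without 4C11- replicate 1, the library that stands apart, 3 genes passed: *Dusp4*, *Dusp6* and *Spry2*.

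Between non-metastatic melanoma cells and melanocytes, 4C11- against melan-a, *Dusp4* fell by 1.92 (SE 0.53, adjusted p = 0.0327) and *Spry2* by 2.02 (SE 0.48, adjusted p = 0.0159). The background was 13.6% (7.55% higher and 6.05% lower). The remaining 6 genes were not called, including *Etv5* at -1.28 (SE 0.92, adjusted p = 0.432). The count fell to 0 without melan-a replicate 3 or 4C11- replicate 2, and to *Spry2* alone without melan-a replicate 2, 4C11- replicate 3, or 4C11+ replicate 1 or 2.

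The metastatic and the pre-malignant line, 4C11+ against 4C, gave the most calls. Here 6 of the 8 genes were called and all 6 were higher in 4C11+: *Etv5* by 3.35 (SE 0.82), *Spry4* by 2.33 (SE 0.80), *Spry2* by 1.87 (SE 0.43, adjusted p = 0.00637), *Dusp4* by 1.71 (SE 0.47, adjusted p = 0.0168), *Dusp6* by 1.55 (SE 0.39) and *Nras* by 0.66. Over all genes 31.7% were called, 17.1% higher and 14.6% lower. *Spry2* and *Etv5* passed under all 19 alternatives. The count was 3 without 4C replicate 2 (*Dusp4*, *Spry2* and *Etv5*) and 3 without 4C11+ replicate 1 or 2 (*Dusp6*, *Spry2* and *Etv5*).

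No member was called between the epithelial lines, 4C11+ against melan-a, by limma, and *Dusp6* had an unadjusted p under 0.05. Of all genes 15.9% were called there (8.39% higher and 7.52% lower). The intervals were wide for several genes: *Etv5* was 1.17 lower in 4C11+ with a 95% interval from -3.18 to 0.85, and *Spry2* 0.95 lower with an interval from -2.01 to 0.11. Without melan-a replicate 3, *Dusp6* was called. All comparisons that include a line use the same libraries of it, so their results are not independent.

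Joining lines by morphology, 4C and 4C11- against melan-a and 4C11+, gave 5 calls, all lower in the mesenchymal-like lines, where 29.7% of all genes were called (14.3% higher and 15.3% lower). *Spry2* was 3.85-fold lower (adjusted p = 0.000767), *Dusp4* 3.52-fold (adjusted p = 0.00232), *Etv5* 4.96-fold (adjusted p = 0.0145), *Dusp6* 1.85-fold (adjusted p = 0.0403) and *Nras* 1.45-fold. The libraries did not overlap for *Spry2*, *Dusp4* and *Nras*, and did for *Etv5* and *Dusp6*. The share of all genes without overlap between these groups was not counted, so this describes the values only. The count was 2 (*Dusp4* and *Spry2*) without melan-a replicate 3, and 3 (*Dusp4*, *Spry2* and *Etv5*) without 4C replicate 2, 4C replicate 3 or any culture of 4C11+. Joining the derived lines against melan-a gave 2 calls, *Spry2* lower by 1.93 (SE 0.41, adjusted p = 0.00955) and *Dusp4* by 1.53 (SE 0.45, adjusted p = 0.0485), where 12.3% of all genes were called (6.59% higher and 5.7% lower). That count fell to 0 without melan-a replicate 3 and to 1, *Spry2*, without melan-a replicate 2, 4C replicate 3, 4C11- replicate 2 or 3, or any culture of 4C11+, and it rose to 3 with *Etv5* without 4C replicate 1.

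The cultures of 4C differed widely from each other in *Etv5*, *Spry4* and *Dusp4*. All 5 output genes were highest in replicate 1, then replicate 3, and lowest in replicate 2, an order that 14% of all 14272 genes had. For *Dusp6*, replicates 1 and 3 were equal when rounded, at 6.24. *Etv5* spanned 4.26 log2 units, or 19.2-fold, and no other gene among the 1005 with a 4C mean within 0.5 of it spanned as much. *Spry4* spanned 4.02 units, a range reached by 5 of 1085 genes of like level with itself counted, and *Dusp4* 2.28 units, reached by 7 of 2379. *Spry2* spanned 1.49 units, reached by 12.2% of its like, and *Dusp6* 0.52 units, reached by 43.4%. The mean log2 CPM of the 5 genes was 4.97, 2.46 and 3.64 in the 3 cultures of 4C, against 5.72 and 6.59 in melan-a, 5.59, 4.77 and 4.49 in 4C11-, and 5.74, 6.02 and 5.80 in 4C11+. The last line was the most even, with each of the 5 genes within 0.72 units between its cultures. In 4C replicate 1 genes under 2.42 kb ran a median of 0.28 above and genes over 6.42 kb 0.18 below the other cultures of the line, and the part of this in the spread was not tested.

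**Figure D3:**
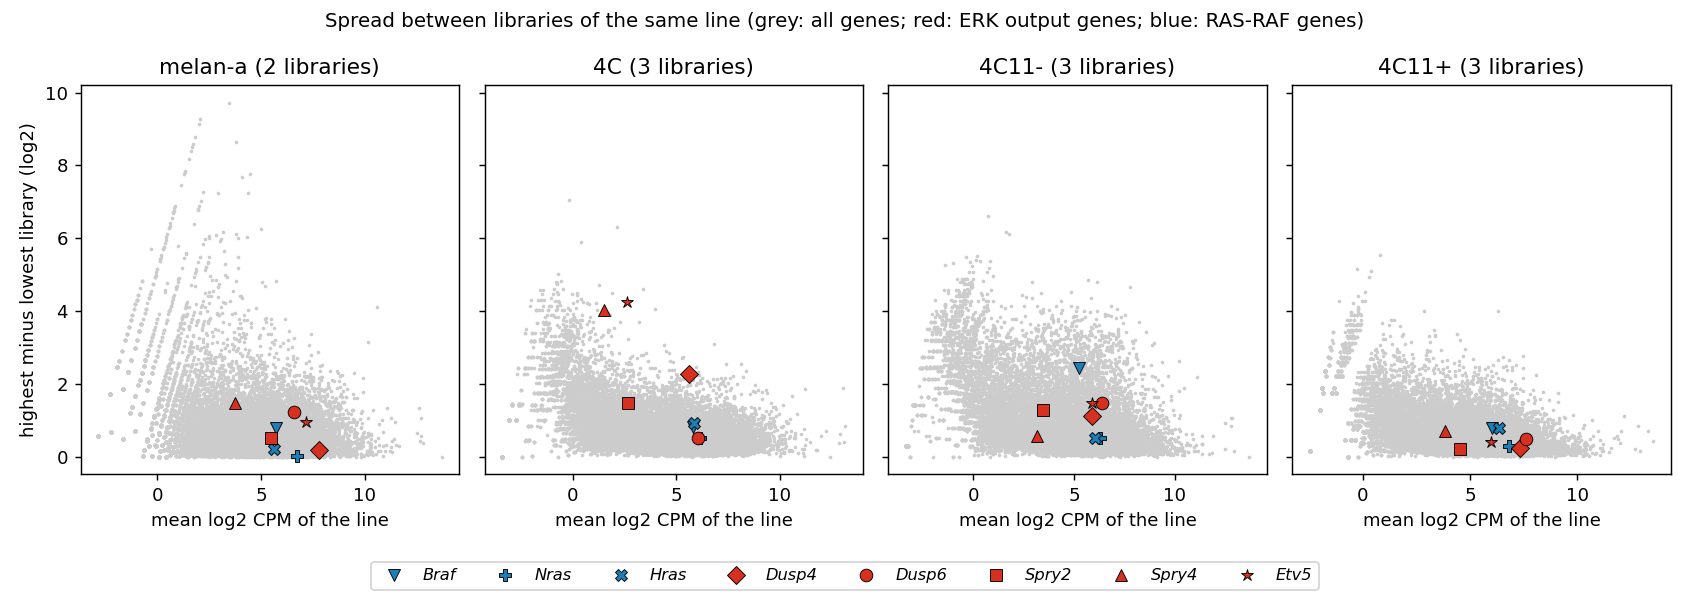
Range between libraries of a line (vertical axis, log2) against the mean level of the line (horizontal axis, log2 CPM) for all genes (grey), the ERK output genes (red) and the RAS-RAF genes (blue). In 4C, *Etv5* at 4.26 and *Spry4* at 4.02 stand at the upper edge of the genes of like level, and in 4C11- *Braf* spans 2.44.

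Within lines, the output genes also varied together. As a description over the same 11 libraries, with the line means removed, Pearson's r was 0.94 between *Spry4* and *Etv5*, 0.92 between *Spry2* and *Etv5*, 0.92 between *Dusp4* and *Etv5*, and 0.89 between *Dusp4* and *Spry2*. *Dusp6* followed them less closely, at 0.46 to 0.65. *Hras* gave 0.24 to 0.65 with the 5 genes, *Nras* -0.28 to 0.11 and *Braf* -0.69 to -0.32. These coefficients share the depth and the length shift of each library, and 4C supplies much of the spread.

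Over the 11 libraries without that adjustment, the genes most like *Spry4* were the PEA3 gene *Etv1* (r = 0.942) and then *Etv5* (r = 0.927) and *Rnf225* (r = 0.922). Nearest to *Etv5* were *Cers4* (0.962), *A330069E16Rik* (0.957) and *Trim62* (0.956). *Dusp4* lay closest to *Tomm20* (0.974), *Prkcz* (0.954) and *M1ap* (0.953), and *Spry2* to *Acot7* (0.979), *Rpl12* (0.965) and *Prkcz* (0.956). *Dusp6* lay closest to *Prkar1b* (0.965), *Mtg1* (0.952) and *Rpl13a* (0.948). Of the RAS-RAF genes, *Braf* was nearest to *Sltm* (0.982), *Strn3* (0.98) and *Zfp345* (0.974), *Nras* to *Gm10138* (0.949), *Abracl* (0.942) and *Megf9* (0.934), and *Hras* to *Get4* (0.974), *Ddx54* (0.96) and *Dnajc15* (0.95). These are the highest coefficients over all genes of the table and carry no test, and *Rpl12*, *Rpl13a* and *Tomm20* can share reads with near-identical copies.

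The promoters of *Spry2*, *Etv5* and *Dusp6* are shown because these genes were called together between 4C and 4C11+. *Dusp4* and *Spry4* were called there too, and their promoters are not shown. Each is the 250 bases before the annotated start (RefSeq, GRCm38.p6), read 5′ to 3′ on the strand of the gene, and capitals mark a CCAAT box on either strand. They cover chr14:105896820-105897069 for *Spry2*, chr16:22439571-22439820 for *Etv5* (its upstream start of 2 listed) and chr10:99262981-99263230 for *Dusp6*. In GENCODE the *Etv5* gene reaches 22439719, so part of its window lies inside the gene as annotated there.
Spry2: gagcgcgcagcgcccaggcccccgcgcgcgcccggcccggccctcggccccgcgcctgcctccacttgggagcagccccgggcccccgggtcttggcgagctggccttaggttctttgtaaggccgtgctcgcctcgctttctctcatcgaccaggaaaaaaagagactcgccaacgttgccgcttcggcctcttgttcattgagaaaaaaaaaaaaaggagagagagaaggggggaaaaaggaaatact
Etv5: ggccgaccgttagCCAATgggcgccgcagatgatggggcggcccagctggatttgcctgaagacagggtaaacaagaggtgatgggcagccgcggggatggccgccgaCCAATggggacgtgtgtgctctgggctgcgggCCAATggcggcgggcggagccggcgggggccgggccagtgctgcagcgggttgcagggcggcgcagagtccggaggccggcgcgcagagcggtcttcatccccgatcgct
Dusp6: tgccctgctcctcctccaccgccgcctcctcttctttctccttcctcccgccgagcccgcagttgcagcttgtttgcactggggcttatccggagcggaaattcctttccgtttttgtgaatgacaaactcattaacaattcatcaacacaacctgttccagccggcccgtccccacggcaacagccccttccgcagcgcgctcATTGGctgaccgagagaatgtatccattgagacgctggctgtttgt
GC content was 62.4% for *Spry2*, 71.2% for *Etv5* and 56.4% for *Dusp6*, against a median of 52.4% over 32851 promoters. The windows were searched on both strands for the ETS site CCGGAA, the AP-1 site TGAGTCA and the cAMP response element TGACGTCA. The CArG box of serum response factor, the CCAAT box CCAAT and the TATA box TATAAA were searched as well. The shorter ETS core GGAA was not searched. The ETS site was present in 12% of all promoter windows, the AP-1 site in 4.46% and the cAMP response element in 1.55%. The CArG box was in 1.47%, the CCAAT box in 33.8% and the TATA box in 12.4%. The *Etv5* window holds 3 CCAAT boxes and that of *Dusp6* holds 1, from position -46 relative to the start, and none of the other motifs matched in the 3 windows shown. Of the RAS-RAF genes, *Braf* holds 2 cAMP response elements, from positions -99 and -81, *Hras* an ETS site and a CCAAT box, and *Nras* no match. A match is a run of letters, not a bound site, and the absence of these letters says nothing about other sequence.

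Next to the members stand the MEK kinases below RAF. In 4C11+ against 4C11-, *Map2k1* (MEK1) rose by 0.87 (SE 0.21, adjusted p = 0.00804) and *Map2k2* (MEK2) by 1.05 (SE 0.29, adjusted p = 0.0166). Against 4C they rose by 1.09 (SE 0.21, adjusted p = 0.00195) and 1.06 (SE 0.29, adjusted p = 0.0158). Neither was called in 4C against melan-a.

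Of 9 listed RAS and RAF relatives, 8 were in the table, and in 4C11+ against 4C11- 3 rose and 2 fell, where 15.6% of all genes were called higher and 15.4% lower. *Ksr1*, which encodes a scaffold that brings RAF, MEK and ERK together, showed the widest change. It measured 5.23 and 4.96 in melan-a, 6.88, 7.44 and 7.13 in 4C, 7.80, 7.65 and 7.73 in 4C11-, and 2.59, 2.45 and 3.89 in 4C11+. It was thus highest in the mesenchymal-like lines, and its 4C11+ mean was 26.9-fold below that of 4C11- (-4.75, SE 0.34, adjusted p = 1.42e-06). *Rras*, an R-RAS GTPase, fell with it by 1.80. In 4C against melan-a, 2 relatives rose and 1 fell, where 7.64% of all genes were called higher and 7.55% lower. *Ksr1* and *Rras2* each rose by 2.06. *Mras*, whose product forms a phosphatase complex with SHOC2 that activates RAF, fell by 2.10.

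Among 11 of 15 listed exchange factors and adaptors in the table, 4 rose and none fell in 4C11+ against 4C11-, beside 15.6% and 15.4% of all genes. *Rasgrp3*, a diacylglycerol- and phorbol ester-responsive RAS exchange factor, stood at 3.57 and 4.16 in melan-a and at 5.58, 5.59 and 6.02 in 4C11+. It was at -1.01, -0.21 and 0.63 in 4C and at 0.06, -3.15 and -1.50 in 4C11-, so the epithelial lines did not overlap with the mesenchymal-like ones. The fall from melan-a to 4C was called (-4.07, SE 0.79, adjusted p = 0.00432), and so was the rise in 4C11+ over 4C11- (7.26, SE 0.71, adjusted p = 1.51e-05). *Rapgef1*, an exchange factor for RAP1, rose by 1.98 and *Sos2*, an exchange factor for RAS, by 1.89 in the latter comparison. *Rasgrp2*, at 0 to 3 reads in melan-a, reached 4.53, 3.93 and 3.77 in 4C11+ and was called higher there than in melan-a.

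GTPase-activating proteins and RAF inhibitors are the brakes on this pathway. Of 14 listed, 12 were in the table, of which 1 fell in 4C against melan-a (7.55% of all genes) and 2 fell in 4C11+ against 4C11- (15.4% of all genes), shares near the background. None was called in 4C11+ against 4C, where 31.7% of all genes were. By unadjusted p under 0.05 limma gave 4 of the 12. That threshold is looser, and the share of all genes under it was not counted. *Rasa4*, a calcium-responsive RAS GTPase-activating protein, fell by 1.94 in 4C and by 2.79 in 4C11+ against melan-a. *Dab2ip* fell by 1.22 in 4C11+ against melan-a (adjusted p = 0.0197).

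Further transcripts that respond to ERK were looked at beside the 5 output genes. The 5 other genes of a published pathway score of which *Dusp4*, *Dusp6*, *Spry2*, *Spry4* and *Etv5* are also part gave 1 higher and 2 lower in 4C11+ against 4C11-, with 15.6% of all genes higher and 15.4% lower. *Epha2*, an ephrin receptor, stood at 3.34 to 3.53 in the libraries of 4C11+ and at 6.0 to 7.87 in all others, and was 15.4-fold below 4C11- (adjusted p = 4.19e-07). *Ccnd1*, the cyclin of the G1 phase, was 1.87-fold lower there. *Phlda1* was 4.44-fold higher in 4C11+ than in 4C (adjusted p = 0.0261), where it was low, at -0.25 to 1.47 log2 CPM. *Epha4* held 0 to 2 reads in each 4C11- library, against a mean of 3.14 log2 CPM in melan-a and 1.87 in 4C, and was called lower in 4C11- than in both.

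In the DUSP, Sprouty and PEA3 families outside the members, 10 of 11 genes were in the table, with 1 higher and 5 lower in 4C11+ against 4C11-, compared with 15.6% higher and 15.4% lower over all genes. *Dusp5*, a nuclear ERK phosphatase, was at 4.10 and 2.37 in melan-a, 5.42, 5.04 and 3.80 in 4C, and 5.62, 5.34 and 5.15 in 4C11-, but at 1 read in each 4C11+ library. It was called lower in 4C11+ than in each of the other lines, the reverse of *Dusp4* and *Dusp6*, which were called higher there than in 4C and 4C11-. *Dusp9* was at 6.35, 6.20 and 5.66 in 4C11-, at 0.63 to 2.60 in 4C and at -0.70 to 1.44 in 4C11+, with 0 to 2 reads in melan-a, and 4C11- was called higher than every other line. *Spry1*, named after its values were seen, also ran against *Spry2* and *Spry4*: it stood at 2.39 to 2.54 in 4C11+ and at 4.01 to 5.25 in all other libraries, and was lower in 4C11+ than in 4C by 1.98 (SE 0.36, adjusted p = 0.00146). *Etv1* resembled *Etv5*, at 2.02, -2.44 and 0.24 in 4C, in the same order of 4C cultures. In 4C11+ it stood at 3.37, 3.20 and 3.40 (10.5-fold higher, adjusted p = 0.0126). Its 4C values reach the low end of the scale, so the fold is rough. *Dusp2* rose 8.74-fold in 4C11+ against melan-a, where it was low, at -0.25 to 0.75 log2 CPM, so this fold is rough too.

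Immediate early and AP-1 genes are induced by ERK and other kinases within minutes of stimulation. Of 13 in the table (14 listed), 7 fell and none rose in 4C11+ against 4C11- (15.4% and 15.6% of all genes), with a median difference of -1.78 against 0.12 over all genes. Against 4C, 4 fell and 1 rose (14.6% and 17.1% of all genes). *Jun* measured 7.40 and 6.45 in melan-a, 4.83, 6.09 and 6.0 in 4C, 7.11, 6.45 and 6.34 in 4C11-, and 3.13, 3.24 and 5.38 in 4C11+, and fell 8.05-fold in 4C11+ against melan-a (adjusted p = 0.00914). *Fosl1* was 11.8-fold lower in 4C11+ than in 4C (adjusted p = 0.00308). Its 4C11+ values, -2.44 to 0.15 log2 CPM, lie at the low end of the scale, so the fold is rough. *Egr1* was at 3 reads in each 4C11+ library, against 4.35 and 1.59 log2 CPM in melan-a and 4.33, 4.33 and 2.32 in 4C11-, and *Egr2* at 0 to 2 reads. In 4C against melan-a, 2 genes of the list rose and 1 fell, where 7.64% and 7.55% of all genes did.

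**Figure D4:**
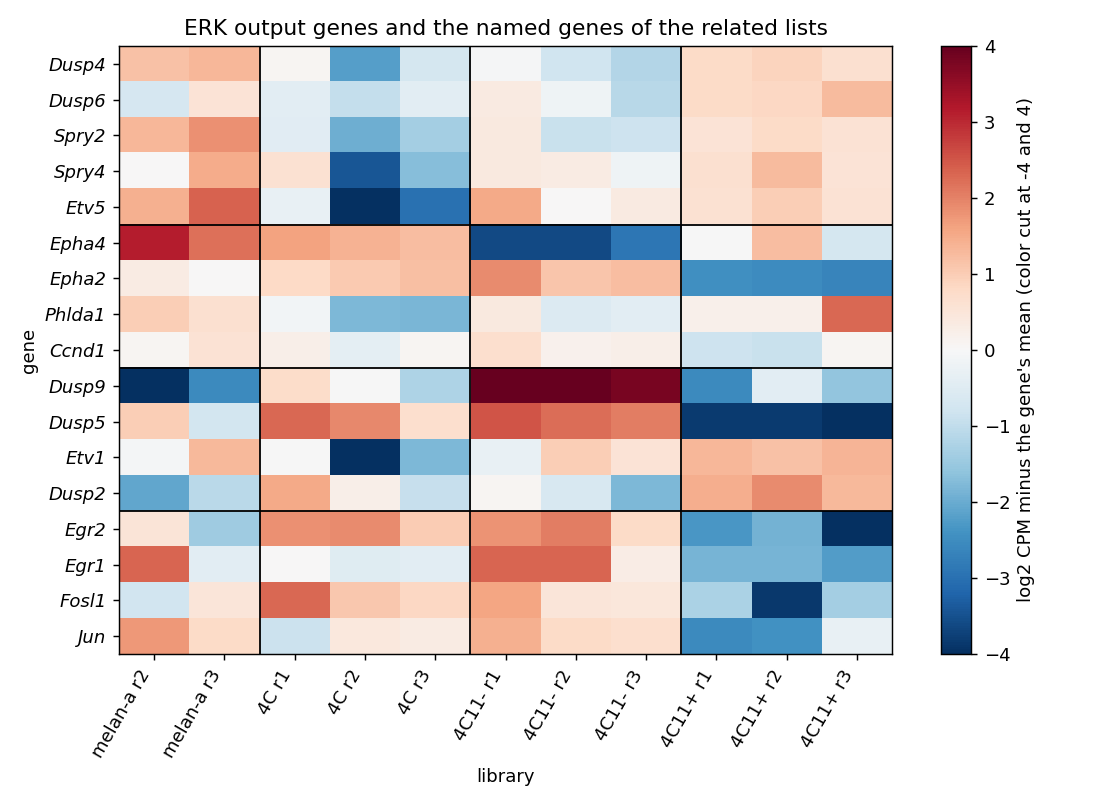
Level of the 5 ERK output genes and of the named genes of the related lists (rows, in 4 blocks) in each library (columns), as log2 CPM minus the mean of the gene over the 11 libraries. *Dusp5*, *Epha2*, *Egr2*, *Egr1* and *Jun* are blue in 4C11+, where the 5 output genes of the top block are red.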

How the data were processed

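Total RNA of 11 cultures was sequenced after removal of ribosomal RNA with a stranded kit. Per the labels and the methods, the authors trimmed reads with Trimmomatic, aligned them to GRCm38 with STAR, counted them per gene, kept genes that reached 1 CPM in 4 libraries or more, and transformed counts with voom in limma. The deposited values are on the log2 CPM scale, but all 11 libraries share 1 distribution (highest value 13.69), so a further step made them alike, which is not given in the sources used here, and levels are relative. The strand setting of the counting is not given either. Ties among low values gave the reads of low genes. The value of genes with 40 reads gave a rough depth of 3500000 to 7420000 reads, which limits low genes such as *Spry4*.

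Of 14272 genes, 14248 had a symbol. Line means were compared with limma 3.58.1 (R 4.3.3) over all libraries, letting the variance depend on the mean level, with p-values adjusted over all genes by Benjamini-Hochberg, after the fit was tested on simulated data. Named beside the 8 members are up to 4 called genes per list with the largest difference between lines and, per member, the 3 genes with the highest r. The members and lists were chosen with earlier results of these data known. Exonic lengths and positions are from GENCODE M21, and promoters were found for 6 members. Alternatives were a further quantile normalization, a filter on genes with a mean under 1, values below 0 raised to 0, no trend, robust variance, library weights, a replicate block, only the lines compared, and leaving out each library. Some genes of the lists are not reported here by name.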

Additional observations from a re-analysis of the deposited data

How the results depend on the processing

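Calls of *Spry2* and *Etv5* in 4C against melan-a and in 4C11+ against 4C held under all 19 alternatives, and no difference that was called changed its sign. Raising values below 0 to 0 changed no count of called members. Further quantile normalization, 1 of the 19, could change little, because the libraries already share 1 distribution. In 4C11- against 4C the count of 0 became 2 with library weights (*Spry4* and *Etv5*), 1 with the replicate block (*Etv5*) and 0 to 1 leaving out single libraries. In 4C11+ against 4C11- the count of 2 became 0 without the trend, 4 with library weights, 3 with the replicate block and 0 to 3 leaving out libraries. In 4C11- against melan-a the count of 2 became 1 without the trend, 1 with library weights, 1 with only the lines compared and 0 to 2 leaving out libraries. Leaving out libraries gave 3 to 6 in 4C11+ against 4C, 0 to 1 in 4C11+ against melan-a, 2 to 5 by morphology and 0 to 3 for derived lines against melan-a. By morphology 3 were called without the trend. Derived lines against melan-a gave 1 with the filter, without the trend, with robust variance and with library weights, and 3 with the replicate block. The cause of these changes was not tested.

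Uncalled differences that changed sign leaving out libraries were as follows. In 4C against melan-a, *Braf* ranged from -0.33 to 0.46, *Hras* from -0.04 to 0.43 and *Dusp6* from -1.14 to 0.09. In 4C11- against 4C, *Braf* ranged from -1.11 to 0.11, *Nras* from -0.01 to 0.29, *Hras* from -0.04 to 0.43, *Dusp4* from -0.36 to 0.78 and *Dusp6* from -0.03 to 0.70. In 4C11- against melan-a, *Braf* ranged from -1.05 to 0.17, *Dusp6* from -0.85 to 0.39 and *Spry4* from -1.32 to 0.17. *Etv5* in 4C11+ against 4C11- ranged from -0.20 to 0.55, *Braf* in 4C11+ against 4C from 0 to 0.41 (-0.14 with library weights), and in 4C11+ against melan-a *Braf* ranged from -0.11 to 0.68 and *Spry4* from -0.68 to 0.81 (-0.29 with the replicate block). Whether the replicate numbers pair the cultures cannot be told: deviations of 15 same-numbered pairs correlated at -0.226 to 0.388, with 8 over 0.1. Pairs with different numbers were not compared. Depth limits *Spry4* and *Etv5* in 4C, at 6 to 27 reads in replicates 2 and 3.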
